A study of Mus musculus with 3 samples.

Results

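The 44 genes described here encode proteins that prepare and copy DNA: origin recognition and licensing factors, the replicative helicase, DNA polymerases with their clamp and loader, nucleotide synthesis enzymes, maintenance DNA methylation proteins, and the E2F factors and E cyclins. They were taken by name from a list of such genes, out of 19938 genes named on the array. The rule itself used no measured values, but the list was chosen with earlier results of these data known. Each of the 44 had a value in every array. At least 1 of the 3 arrays put 41 of them at or above 6.63, the median of all log2 signals, which served as the level filter and left 11808 genes in all. Orc1, Pole2 and E2f2 were below it in every array.

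RNA came from cultured fibroblasts of the mouse forestomach, the squamous-lined upper chamber of the rodent stomach, that were positive for FSP1, the product of S100a4. The 3 groups were wild type from normal forestomach, a conditional knockout (cKO) of Tgfbr2 from a forestomach squamous cell carcinoma, and a combined cKO of Tgfbr2 and Smad4 from normal forestomach. Tgfbr2 is the ligand-binding receptor of TGF-beta signalling, and Smad4 is the shared partner of the SMADs that the receptors activate. Each group was 1 line on 1 Affymetrix Mouse Gene 1.0 ST array, grown subconfluent in DMEM with 10% serum at passages 4 to 6. The labels describe the mice as C57BL6 and BALBc of either sex, without giving strain, sex or age for a line, the number of animals behind it, or the Cre that removed the genes. With 1 array per group there was no replicate spread, so differences are given as sizes between these arrays, with no test, and "called" means at least 2-fold.

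Whole-array checks bear on how these differences can be read. Each of the 3 arrays had a median of 6.63 on the log2 scale. The Tgfbr2 and Smad4 probe sets read 10.25 to 10.29 and 11.04 to 11.06 over the 3 arrays, and since the removed exons cannot be separated in them they check nothing. Xist, the RNA of the inactive X chromosome, read 5.33, 5.35 and 9.44 in the wild-type, single and double cKO arrays, and the Y-linked Eif2s3y read 10.12, 10.00 and 5.01. Sex, line and genotype therefore cannot be told apart for the double cKO, nor tumour origin and genotype for the Tgfbr2 cKO. Fibroblast markers, 15 of 16 with a value, summed to 179.9, 181.0 and 182.5 log2 units, and Col1a1 read 14.33, 14.38 and 14.52. That sum holds genes at least 2-fold apart between double cKO and wild type in both directions: Thy1 at -2.36, Pdgfra at 1.40, Lum at 1.21 and Fap at 1.09 as log2 differences. Epithelial markers, all 12 with a value, summed to 78.2, 77.5 and 75.1, leukocyte markers (11 of 12) to 68.2, 69.7 and 67.3, and endothelial markers (all 9) to 58.6, 58.7 and 58.2. Within these sums Krt19 (epithelial) differed by -1.89, Eng by 2.20 and Ptprb by -2.54 (both endothelial) between double cKO and wild type, and Lyz2 (leukocyte) by -1.77 between double and single cKO. The leukocyte marker Ptprc and the epithelial marker Epcam were below the median signal in every array, but other markers of both lists were not. At or above it were 5, 5 and 4 of the 12 epithelial markers, and 4 of the 11 leukocyte markers in each array. Krt19 read 8.82, 9.25 and 6.93, and Lyz2 read 8.70, 9.52 and 7.75. Smooth muscle markers, all 10 with a value, summed to 112.4, 112.7 and 101.6, the largest gap among these lists, with Myh11 at -3.37, Actg2 at -2.85, Des at -2.06 and Cnn1 at -1.62 between double cKO and wild type. In that comparison 8 of the 10 were lower, 1 was equal and 1, Mylk, was higher at 0.79. By any amount 22.8% of all named genes were lower and 24.8% higher. Acta2 and Tagln differed by only -0.20 and -0.36. The part of these markers in the results below was not tested.

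Replication of a chromosome starts at origins, where the origin recognition complex, CDC6 and CDT1 load the MCM2 to MCM7 ring in G1 phase, and the ring is turned into a moving helicase by CDC45, the GINS complex and MCM10 when S phase begins. Most genes of this machinery are transcribed at the G1 to S transition by E2F factors, which the retinoblastoma family holds in check until cyclin-dependent kinases release them. In fibroblasts these transcripts are abundant in dividing cultures and scarce in resting ones. In a bulk culture fewer cells in S phase and less RNA per cell cannot be told apart.

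Because these genes share E2F control in textbook accounts, the bases before their start sites are shown first, from RefSeq promoter windows of build GRCm38.p6. In each of the 6 functional groups the gene with the largest difference between the double cKO and wild type is printed, among those the table holds. Each run is the 250 bases before the start site, 5′ to 3′ in the direction of transcription. Capitals mark the E2F words TTTCCCGC, TTTCGCGC, TTTGCCGC and TTTGGCGC or their reverse complements, and the CCAAT box (CCAAT or ATTGG).
Cdc6 chr11:98907901-98908150 (+ strand): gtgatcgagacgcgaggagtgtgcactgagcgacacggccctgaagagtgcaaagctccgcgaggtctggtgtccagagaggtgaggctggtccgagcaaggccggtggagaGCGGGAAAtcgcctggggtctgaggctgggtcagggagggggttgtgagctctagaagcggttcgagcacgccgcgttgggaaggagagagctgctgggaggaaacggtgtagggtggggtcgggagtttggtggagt
Mcm6 chr1:128359706-128359955 (- strand): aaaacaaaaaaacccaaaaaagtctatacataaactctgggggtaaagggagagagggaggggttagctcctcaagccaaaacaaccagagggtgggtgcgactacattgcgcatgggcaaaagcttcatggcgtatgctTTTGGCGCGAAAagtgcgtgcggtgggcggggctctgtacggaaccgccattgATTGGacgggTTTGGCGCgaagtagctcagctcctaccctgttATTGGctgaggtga
Prim1 chr10:128014965-128015214 (+ strand): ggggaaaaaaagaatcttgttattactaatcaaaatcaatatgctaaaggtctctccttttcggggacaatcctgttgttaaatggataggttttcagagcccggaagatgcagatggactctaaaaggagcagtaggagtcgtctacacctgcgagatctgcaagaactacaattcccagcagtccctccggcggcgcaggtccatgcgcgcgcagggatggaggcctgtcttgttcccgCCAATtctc
Rrm2 chr12:24708004-24708253 (+ strand): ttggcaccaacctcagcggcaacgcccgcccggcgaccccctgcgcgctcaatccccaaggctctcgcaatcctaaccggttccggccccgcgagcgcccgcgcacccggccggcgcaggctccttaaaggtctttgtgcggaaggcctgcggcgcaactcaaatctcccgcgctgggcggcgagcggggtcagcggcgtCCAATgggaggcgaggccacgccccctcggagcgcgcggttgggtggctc
Uhrf1 chr17:56303087-56303336 (+ strand): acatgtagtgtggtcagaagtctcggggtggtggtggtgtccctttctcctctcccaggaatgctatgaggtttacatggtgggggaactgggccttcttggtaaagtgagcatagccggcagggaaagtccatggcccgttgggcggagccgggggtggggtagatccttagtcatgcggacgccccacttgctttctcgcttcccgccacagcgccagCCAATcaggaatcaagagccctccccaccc
E2f7 chr10:110745189-110745438 (+ strand): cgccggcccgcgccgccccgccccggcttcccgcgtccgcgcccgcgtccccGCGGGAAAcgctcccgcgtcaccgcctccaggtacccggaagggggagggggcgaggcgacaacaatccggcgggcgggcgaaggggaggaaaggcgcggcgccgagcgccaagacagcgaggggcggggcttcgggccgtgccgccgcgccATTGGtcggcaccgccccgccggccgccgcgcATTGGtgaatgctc
The Mcm6 run holds 3 E2F words, of which those at positions -110 and -106 from the start site overlap on opposite strands and the third begins at -47, with 2 CCAAT boxes, both read as ATTGG. Cdc6 has an E2F word at -138 and E2f7 at -198. Prim1, Rrm2 and the first Uhrf1 window hold none of the 4 words in the printed bases but each has a CCAAT box; the second Uhrf1 window has an E2F word at -185. A match is a description of letters, and a run without one says only that these words are not in it.

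The table held windows of 300 bases, 250 before and 50 after the start site, for 36 of the 44 genes; Gmnn, Mcm4, Gins1, Gins2, Gins4, Prim2, Pole and Ccne2 were unmatched. An E2F word on either strand was found for 17 of the 36 genes, or 47.2%. The share was 28.2% of 39 other replication genes, 11.5% of 26 mitosis genes and 3.29% of 17491 protein-coding genes in the same windows. The CCAAT box was in 63.9% of the 36 genes, against 42.3% of the protein-coding genes. The words of the cell cycle homology region (CHR: TTTGAA or TTCGAA), a motif known from promoters of mitotic genes, were in 25.0% of the 36, against 80.8% of the mitosis genes and 20.2% of the protein-coding genes. No word of one motif contains a word of another. Median GC content of the windows was 57.3% for the 36 genes and 56.3% for the protein-coding genes. Genes with several windows had more bases searched, which applied to 7 of the 36.

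**Figure D1:**
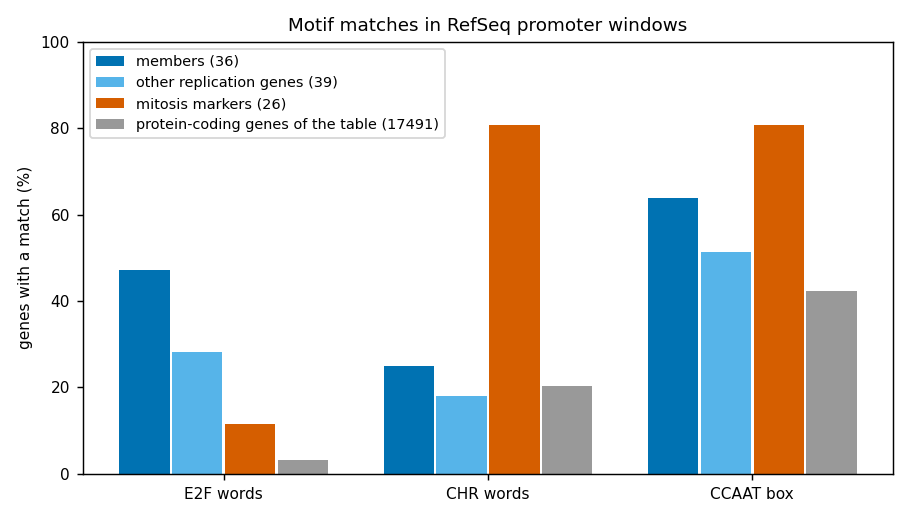
Percentage of genes with at least 1 match in a RefSeq promoter window (y axis) for the E2F words, the CHR words and the CCAAT box; bars are the genes described here, other replication genes, mitosis genes and protein-coding genes, with the number of genes in the legend. The E2F words were in 47.2% of the genes described here and 3.29% of protein-coding genes, and the CHR words in 80.8% of mitosis genes.

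Within the 36, position and number of E2F words varied. Mcm5 has overlapping words at -153 and -149, Mcm7 has words at -165 and 17, and Mcm3 at 20 and 39. Rfc3, the clamp loader subunit with a log2 difference of only -0.01 between double cKO and wild type, has words at -10 and 1, and E2f2, with equal values in the 3 arrays, has a word at 40. Among the 6 genes with a window that were at least 2-fold lower in the double cKO, 4 held an E2F word and each held a CCAAT box. Of the other 30, an E2F word was found for 13 (43.3%) and a CCAAT box for 56.7%. Because those 6 were selected by their difference, the shares are given as a description with no test.

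**Figure D2:**
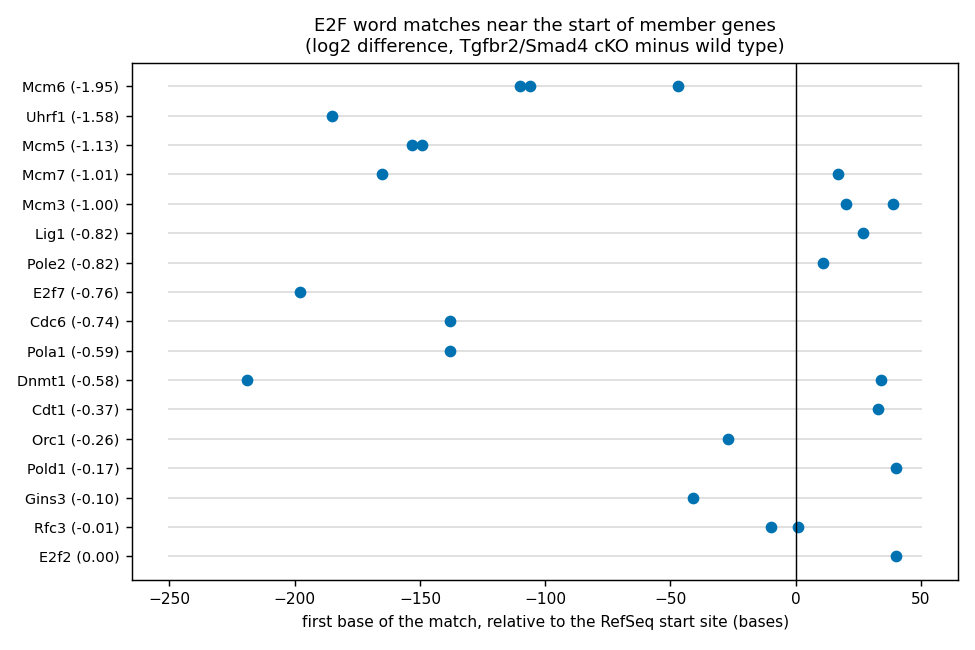
Position of the first base of each E2F word relative to the RefSeq start site (x axis, bases) for the 17 genes with a match, ordered by log2 difference of Tgfbr2/Smad4 cKO minus wild type, printed beside each name; each grey line spans the window, 250 bases before to 50 after the start. Matches lie on both sides of the start site, and genes from Mcm6 (-1.95) to E2f2 (0.00) have one.

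The question of the main comparison is how the replication genes differ between the double cKO line and the wild-type line. Of the 44 genes, 41 were lower in the Tgfbr2/Smad4 cKO array as deposited, 3 were equal (Gins4, E2f1 and E2f2) and 0 were higher. Of all 19938 named genes, 22.8% were lower by any amount and 24.8% higher in the same comparison, and 10434 were exactly equal. At the filter 39 of 41 were lower and 2 equal, against 3801 lower, 3671 higher and 4336 equal of 11808 genes. Called at least 2-fold lower were Mcm6, Rrm2, Prim1, Ccne2, Uhrf1, Mcm5, Pole and Mcm7, which is 8 of the 44, against a background of 1.30% of all named genes; among genes at or above the level filter it was 8 of 41, against 2.18% of 11808. At 1.5-fold the count was 22 of 44, and 21 of 41 against 5.09% at the filter; at 3-fold it was 4 of 41 against 0.813%. At 2-fold 0 of the 41 were higher, against 1.22%. The median log2 difference was -0.58 over the 44 and -0.59 over the 41, beside 0 over all named genes. The 8 span each functional group except origin licensing. The nearest to the limit were Mcm7 at -1.01, just inside it, and Mcm3 at -0.999, just outside it. With arrays centred on housekeeping genes every difference in this comparison rose by 0.03, which put Gins4, E2f1, E2f2 and Rfc3 above 0.

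**Figure D3:**
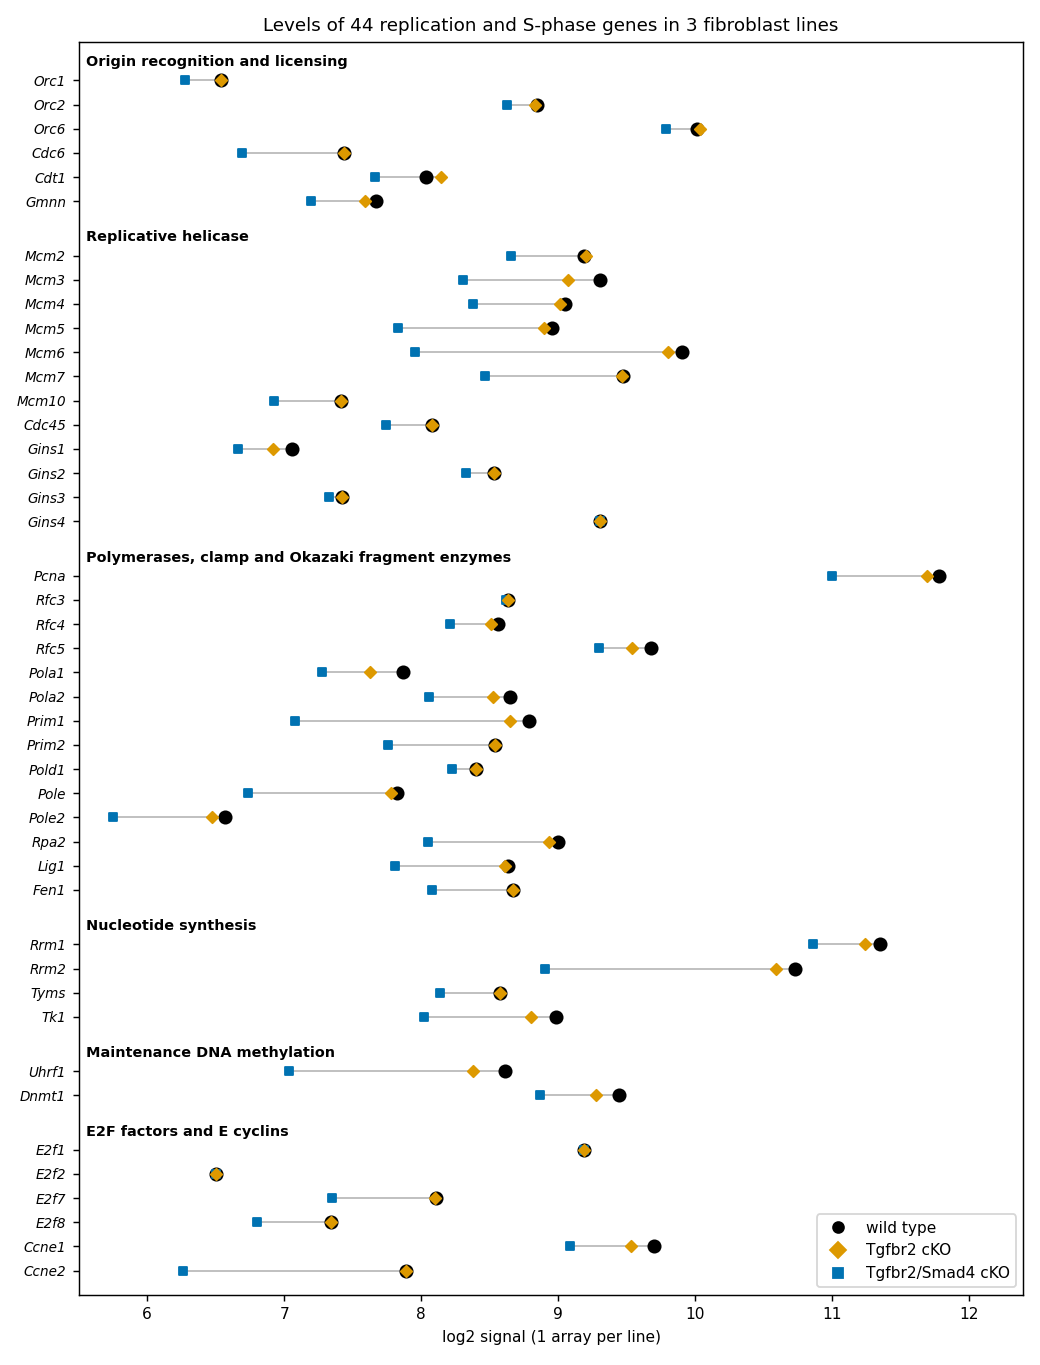
Log2 signal (x axis) of each of the 44 genes in each line (1 array each; black wild type, orange Tgfbr2 cKO, blue Tgfbr2/Smad4 cKO), grouped by function; grey lines join the lowest and highest value. The Tgfbr2/Smad4 cKO point lies lowest for 41 of the 44, and the wild-type and Tgfbr2 cKO points lie close together.

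Origin recognition and licensing genes differed least among the groups, with a median log2 difference of -0.31 and none of 6 at 2-fold. Cdc6, the ATPase that recruits the MCM ring to the origin, read 7.43, 7.43 and 6.70 in log2 signal for wild type, single cKO and double cKO (the order of each set of 3 levels that follows), a difference of -0.74 between double cKO and wild type. It was 59.9% of the wild-type signal in the double cKO and the largest difference of the group. Cdt1, its partner in loading, read 8.03, 8.15 and 7.66, so it was 0.11 higher in the Tgfbr2 cKO and lowest in the double cKO. Gmnn, which encodes geminin, the inhibitor of CDT1, read 7.67, 7.59 and 7.19. The loader Cdt1 and its inhibitor were thus both lower in the double cKO than in wild type, with log2 differences of -0.37 and -0.48. The origin recognition subunits were closer to wild type: Orc2 differed by -0.22 and Orc6 by -0.23, and Orc1, at 6.54, 6.54 and 6.28, by -0.26 in signals under the filter.

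Within the helicase the 6 subunits of the MCM2 to MCM7 ring were unequally lower. Mcm6 read 9.91, 9.81 and 7.95, a 3.87-fold lower signal in the double cKO than in wild type and the largest difference of the 44, at rank 44 from the lowest of 11808 genes. Mcm5 read 8.96, 8.90 and 7.83 and Mcm7 read 9.48, 9.47 and 8.47, which are 2.18-fold and 2.01-fold lower. Mcm3 read 9.30, 9.07 and 8.30, the subunit with the largest difference between Tgfbr2 cKO and wild type, -0.23. Mcm4, at 9.05, 9.02 and 8.38, and Mcm2, at 9.19, 9.21 and 8.66, differed from wild type by -0.67 and -0.54. Over the 6 subunits the double cKO signal ranged from 25.8% of wild type for Mcm6 to 69% for Mcm2.

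Factors that turn the loaded ring into a helicase differed less. Mcm10, which helps to open the ring at the start of S phase, read 7.41, 7.41 and 6.92, and Cdc45, the helicase cofactor, read 8.08, 8.08 and 7.75. The GINS subunits were at log2 differences of -0.39 for Gins1, -0.20 for Gins2 and -0.10 for Gins3. Gins4 was deposited at 9.31 in each of the 3 arrays, with equal values to the last digit. Equal values are frequent in this table: 36.7% of genes at the filter were equal between double cKO and wild type and 55.1% between Tgfbr2 cKO and wild type, and a difference of exactly 0 may hide a small one. Over the 12 helicase genes 11 were lower in the double cKO than in wild type, against 22.8% of all named genes by any amount. Their median difference was -0.51.

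Primase and polymerase genes were lower with large differences within complexes. Prim1, the catalytic primase subunit that makes the RNA start of each new strand, read 8.79, 8.65 and 7.08, a 3.28-fold lower signal in the double cKO than in wild type. Its partner Prim2 read 8.54, 8.54 and 7.76, and the polymerase alpha subunits Pola1 and Pola2, which extend the primer, read 7.87, 7.63 and 7.28 and 8.65, 8.52 and 8.06. All 4 subunits of the primase and polymerase alpha complex were therefore lower in the double cKO than in wild type, with log2 differences of -1.71, -0.78, -0.59 and -0.59. Pole, the catalytic subunit of the leading-strand polymerase epsilon, read 7.83, 7.78 and 6.74, or 2.13-fold lower. Pole2, its second subunit, read 6.57, 6.48 and 5.75 below the filter. Pold1, the catalytic subunit of the lagging-strand polymerase delta, read 8.40, 8.40 and 8.23, a difference of -0.17. The catalytic subunits of the leading-strand and lagging-strand polymerases thus stood at 47.0% and 88.6% of their wild-type signal.

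The clamp, its loader and the enzymes that finish the lagging strand also had unequal differences. Pcna, the ring that tethers polymerases to DNA, read 11.78, 11.69 and 11.00, and its 2 probe sets gave -0.79 and -0.78. Both probe sets held the same value in the double cKO and the same difference, -0.09, between Tgfbr2 cKO and wild type. They may therefore not be independent measurements, which was not tested. The loader subunits were closer to wild type, at -0.35 for Rfc4, -0.38 for Rfc5 and -0.01 for Rfc3, whose sign turned to 0.02 when arrays were centred on housekeeping genes. Rpa2, of the complex that coats single-stranded DNA, read 9.00, 8.93 and 8.05. Lig1, the ligase that joins Okazaki fragments, read 8.63, 8.61 and 7.81, and Fen1, the nuclease that trims them, 8.67, 8.67 and 8.08. All 14 genes of the group were lower in the double cKO than in wild type as deposited, with 2 at 2-fold and a median of -0.69. Of all named genes 22.8% were lower by any amount and 1.30% by at least 2-fold.

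Among nucleotide synthesis genes the regulated subunit of ribonucleotide reductase differed most. Rrm2, the small subunit whose level follows S phase, read 10.73, 10.59 and 8.91, or 3.53-fold lower in the double cKO than in wild type. Rrm1, the large subunit, read 11.35, 11.24 and 10.86, a log2 difference of -0.48. The small subunit thus stood at 28.3% and the large at 71.5% of wild type. Tk1, cytosolic thymidine kinase, read 8.98, 8.80 and 8.02 as the mean of 2 probe sets that gave -0.53 and -1.40, so its size depends on the probe set. Tyms, which makes thymidylate, read 8.58, 8.58 and 8.14.

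Maintenance methylation proteins copy DNA methylation to the new strand behind the fork. Uhrf1, which recognises hemimethylated DNA, read 8.62, 8.38 and 7.03, a 3.00-fold lower signal in the double cKO than in wild type. Dnmt1, the methyltransferase it recruits, read 9.44, 9.28 and 8.87, a log2 difference of -0.58. Both were also lower in the Tgfbr2 cKO than in wild type, with differences of -0.24 and -0.16.

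The E2F factors and E cyclins did not share a single pattern. E2f1 and E2f2, activators of S-phase genes, were deposited at 9.19 and 6.50 in each of the 3 arrays, with equal values. The atypical repressors E2f7 and E2f8, which are themselves E2F targets, read 8.11, 8.10 and 7.35 and 7.34, 7.34 and 6.80. Both repressors were lower in the double cKO than in wild type, with differences of -0.76 and -0.54. The equal values of the 2 activators may hide small differences, and E2f2 was below the filter in every array. Ccne2 and Ccne1 encode the cyclins that drive CDK2 into S phase. Ccne2 read 7.89, 7.89 and 6.26, a 3.09-fold lower signal in the double cKO, which passed the filter through the other 2 arrays. Ccne1 read 9.70, 9.54 and 9.09, a log2 difference of -0.61.

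**Figure D4:**
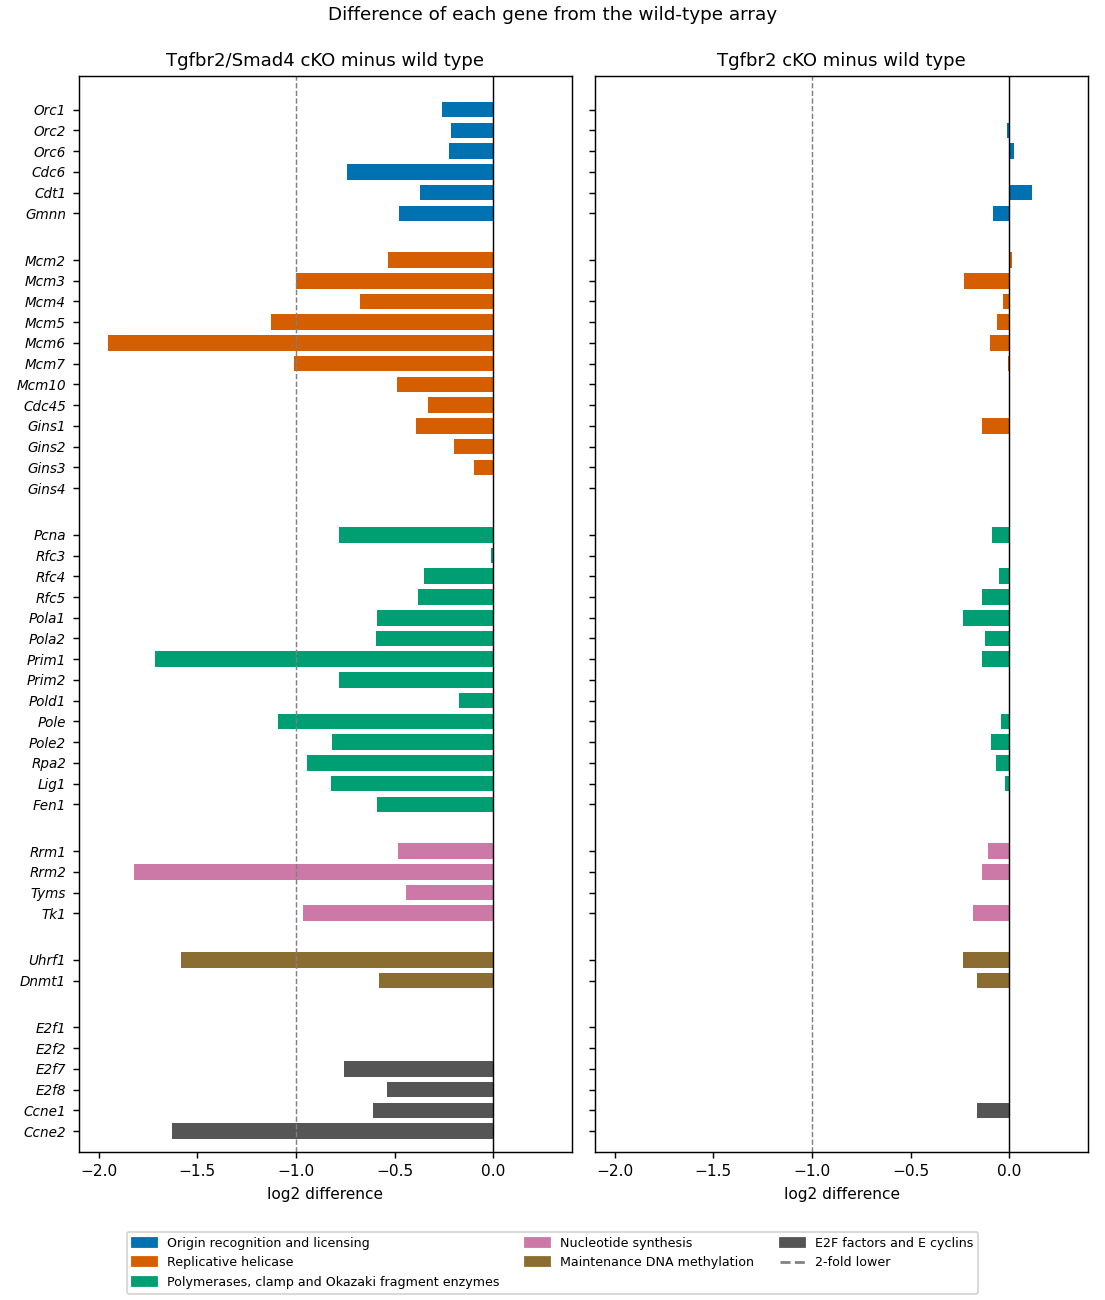
Log2 difference of each of the 44 genes from the wild-type array (x axis) for Tgfbr2/Smad4 cKO (left) and Tgfbr2 cKO (right), 1 array each; bars are coloured by functional group and the dashed line marks 2-fold lower. On the left 8 bars reach the line and the largest is Mcm6 at -1.95; on the right the bars lie between -0.24 and 0.11.

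The second comparison sets the same double cKO array against the Tgfbr2 cKO array, so the 2 comparisons share that array and are not independent. Again 41 of the 44 were lower and 0 higher as deposited, against 23.5% lower and 24.6% higher by any amount over all named genes. At the filter 39 of 41 were lower and 2 equal, against 3984 lower, 3564 higher and 4260 equal of 11808 genes. At 2-fold 8 of 44 were lower, against 1.34%; at the filter it was 8 of 41, against 2.25%, with 18 of 41 at 1.5-fold against 5.61% and 3 of 41 at 3-fold against 0.847%. None was 2-fold higher, against 1.32%. They were the 8 genes named above. The sizes were -1.85 for Mcm6, -1.68 for Rrm2, -1.63 for Ccne2, -1.57 for Prim1 and -1.35 for Uhrf1. The median was -0.49 over the 44, beside 0 over all named genes. Differences against the Tgfbr2 cKO array were 3.61-fold for Mcm6 and 3.21-fold for Rrm2, and 2.98-fold for Prim1.

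The third comparison asks how the Tgfbr2 cKO line, grown from a carcinoma, differed from wild type in these genes. None of the 44 was 1.5-fold or more different in either direction, and few genes were: of those at the filter 0.161% were at least 1.5-fold lower and 0.212% higher, and at 2-fold 0.00847% and 0.0254%. As deposited, 25 genes were lower, 3 higher and 16 equal, against 15.0% lower and 18.2% higher by any amount over all named genes. At the filter 24 of 41 were lower, 3 higher and 14 equal, against 2245 lower, 3052 higher and 6511 equal of 11808 genes. The lowest differences were -0.24 for Pola1, -0.24 for Uhrf1, -0.23 for Mcm3 and -0.18 for Tk1. The 3 higher genes were Cdt1 at 0.11, Orc6 at 0.02 and Mcm2 at 0.01. The median was -0.02. The SD of differences over all genes at the filter was 0.095 here and 0.39 between double cKO and wild type. Both SDs include genes with exactly equal values, 55.1% here and 36.7% between double cKO and wild type.

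Other replication genes, a list of 44 that holds further loader, polymerase, checkpoint and chromatin assembly genes, were lower with smaller differences. In the double cKO against wild type 33 of them were lower and 1 higher, against 22.8% and 24.8% of all named genes by any amount. The other 10 were equal, and the list median was -0.26. At least 2-fold lower were 4 of the 44, against 1.30% of all named genes. Asf1b, a histone chaperone of S phase, read 9.18, 8.86 and 7.41 in wild type, Tgfbr2 cKO and double cKO, a difference of -1.77. Hells, a chromatin remodeller that acts in DNA methylation, differed by -1.30, and Dbf4, the activator of the origin-firing kinase CDC7, by -1.28. Top2a, the topoisomerase that untangles replicated DNA, differed by -1.01 as the mean of 2 probe sets that gave -1.95 and -0.07, the second of them at 3.58 to 3.66. The gene that was higher was Pold4, the small subunit of polymerase delta, at 9.66, 9.77 and 10.36. The kinase subunit Cdc7 read 6.62, 6.62 and 6.35, under the level filter in every array. Its difference was -0.27 where that of its activator Dbf4 was -1.28. Against the Tgfbr2 cKO array 2 of the list were at least 2-fold lower, against 1.34% of all named genes, and the list median was -0.24.

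Other nucleotide synthesis genes were nearer to wild type, with a median of -0.22. Of 19 with a value, 12 were lower and 3 higher, against 22.8% and 24.8% of all named genes, and none was 2-fold different. The largest differences were Samhd1, a dNTP hydrolase, at -0.96, and Dck, deoxycytidine kinase, at -0.78. The other E2F and RB family genes had a median of -0.08. Of these 15, 9 were lower and 3 higher, against the same 22.8% and 24.8%, with Foxm1, the G2 and mitosis factor, at -1.19. Named after their values were seen, the pocket proteins Rbl1 and Rbl2 went in opposite directions, with Rbl1 at 8.10, 8.05 and 7.28 and Rbl2 at 8.91, 8.91 and 9.62. Rb1, the third pocket protein, read 8.91, 8.89 and 8.63, and Mybl2, a partner of the complex that activates mitotic genes, 8.04, 8.04 and 7.15. The E2f3, E2f4, E2f5 and E2f6 differences lay between -0.08 and 0.

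Mitosis genes, listed as a neighbouring programme, differed more than the replication genes did. Of 31 with a value, 28 were at least 2-fold lower in the double cKO than in wild type, against 1.30% of all named genes. All 31 were lower, against 22.8% of all named genes by any amount, with a median of -1.73 beside -0.58 for the 44 replication genes. Mki67, a marker of cycling cells, read 9.65, 9.34 and 7.70. Bub1, a spindle checkpoint kinase, had the largest difference, -2.64, and the others at 2-fold were the checkpoint and kinetochore genes Bub1b, Ttk, Cdc20, Cenpe, Ndc80 and Nuf2, the kinases Aurka, Plk1 and Cdk1, and the cyclins Ccna2 and Ccnb2. The spindle and cytokinesis genes were Kif11, Kif20a, Kif23, Tpx2, Prc1, Nusap1, Birc5, Dlgap5, Hmmr, Anln, Ect2 and Racgap1, and the condensin genes were Ncapg, Ncapd2 and Smc2. Aurkb, Cenpf and Smc4 were lower by less than 2-fold. Between Tgfbr2 cKO and wild type 30 of the 31 were lower, against 15.0% of all named genes by any amount. The median of the 31 was -0.24, where the median of the 44 was -0.02. Housekeeping genes, 16 with a value, had a median of -0.01 between double cKO and wild type and none at 2-fold, with Psmb2, a proteasome subunit, at -0.38 and the glycolytic enzyme Pgk1 at -0.32.

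**Figure D5:**
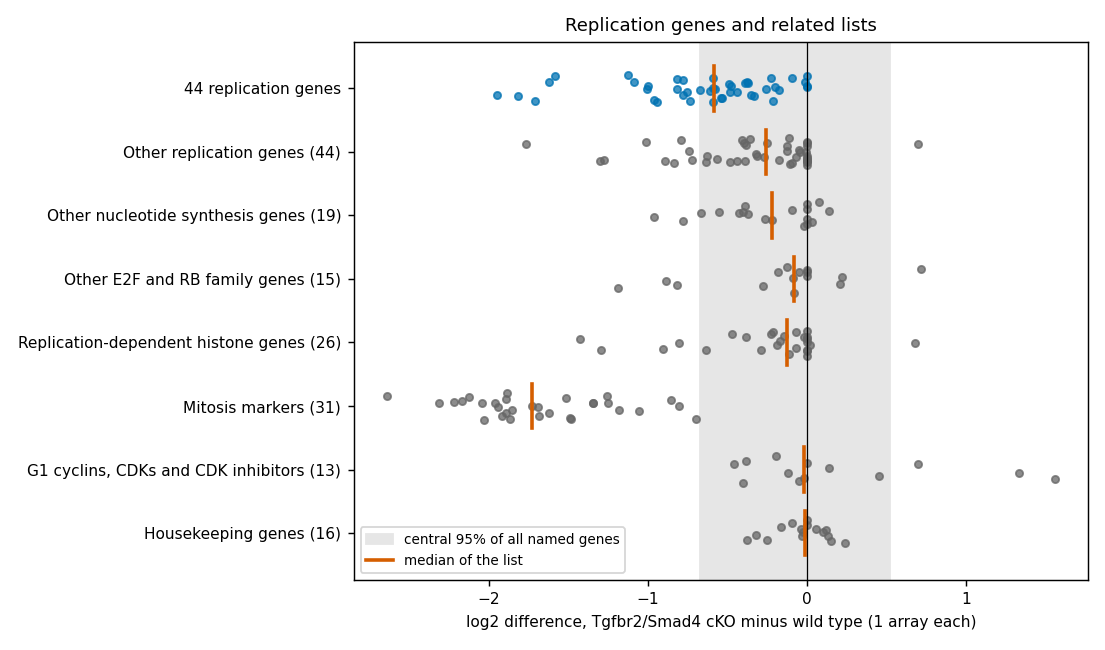
Log2 difference of Tgfbr2/Smad4 cKO minus wild type (x axis, 1 array each) for each gene of 8 lists; points are genes, the orange lines are list medians, and the grey band is the central 95% of all named genes. The median lies at -0.58 for the 44 replication genes, -0.26 for other replication genes, -1.73 for mitosis genes and -0.01 for housekeeping genes.

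Among regulators of the G1 phase, 13 with a value, the median difference was -0.02. Ccnd1, cyclin D1, which binds CDK4 and CDK6 upstream of the E cyclins, read 11.43, 11.05 and 12.13, so it was 0.70 higher in the double cKO than in wild type and 1.08 higher than in the Tgfbr2 cKO. The D cyclin was therefore higher in the double cKO while Ccne1 and Ccne2 were lower. Cdkn2a and Cdkn2b, which share a locus and encode CDK4 and CDK6 inhibitors, were 1.56 and 1.33 higher on the log2 scale in the double cKO than in wild type. Cdk2, the partner of the E cyclins, and its activating phosphatase Cdc25a differed by -0.39 and -0.46.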

How the data were processed

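Per the labels' protocols, total RNA of 3 fibroblast lines was measured on Affymetrix Mouse Gene 1.0 ST arrays, whose probes lie in exons along each gene. The deposited values were read as log2 signals, a unit taken from their range (2.82 to 15.6), and were used as they stand. For software, background correction and normalization the labels name nothing, so these are not given in the sources at hand.

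Of 35556 probe sets, the platform annotation listed 23410, 21789 with 1 gene symbol, 1621 with several and 12146 unlisted. Symbols were updated for 21698 through a RefSeq gene table (GRCm38.p6, names only), and probe sets of a gene were averaged. The level filter kept genes whose highest value reached 6.63. Levels of different genes were not ranked; marker lists were described by their sum per array and by the genes at least 2-fold different.

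The genes and lists were chosen with earlier results of these data known. All 44 genes are named; of other lists, those at least 2-fold different in any comparison, or else the 2 with the largest difference. Rb1, Rbl1, Rbl2, Mybl2, E2f3 to E2f6, Cdc7, Pold4, Cdk2 and Cdc25a were named after their values were seen. Aurkb, Cenpf, Smc4, Acta2, Tagln, Mylk, Col1a1, Ptprc and Epcam are also named outside that rule. Tables were made with Python 3.11.15 and normalizations with limma 3.58.1 in R 4.3.3; the counting was tested on simulated data. Alternatives covered scaling, filter, probe set choice, ties, fold limit and an added signal of 32. Promoter words were searched in RefSeq windows on both strands. Protein sequences were not used here.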

Additional observations from a re-analysis of the deposited data

How the results depend on the processing

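List counts were compared by ratio and list medians by shift, a rule that could not mark any of them as reversed in direction. Of the 44 genes, the count at least 2-fold lower in the double cKO was 8 against either other array at the level filter. At a limit of 1.5-fold it was 21 against wild type and 18 against the Tgfbr2 cKO, beside 5.09% and 5.61% of all genes tested. At 3-fold it was 4 and 3, beside 0.813% and 0.847%. With the filter at the 75th percentile of signal, which kept 17 of them, it was 4 in each, beside 2.42% of all genes tested against wild type and 2.57% against the Tgfbr2 cKO, and the median against the Tgfbr2 cKO was -0.64 rather than -0.49. With 32 added to the linear signal the count against the Tgfbr2 cKO was 5, beside 1.79% of all genes tested. Of the other replication genes, 39 at the level filter, the count lower against wild type, 4, was 11 at 1.5-fold and 1 at 3-fold. With the higher filter it was 2 of 19. Against the Tgfbr2 cKO the count of 2 was 10 at 1.5-fold, 0 at 3-fold, and 1 with 32 added, with housekeeping centring and with quantile normalization. The share of all genes tested was 2.14% with housekeeping centring and 2.16% with quantile normalization, and as given above for the other settings. The count of these genes higher in the double cKO, 0, was 1 at 1.5-fold in both comparisons, the gene being Pold4. Of all genes tested 3.35% were higher against wild type and 3.4% against the Tgfbr2 cKO at that limit. Fewer genes were tested under the higher filter; the cause of the other moves was not tested beyond the limits themselves. Median centring, cyclic loess, no filter, 1 probe set per gene and leaving out ties kept these counts within 1.5 times and medians within 0.1. Of 123 single-gene differences, 15 moved by over 0.1 with 32 added, the largest shift being Ccne2 against wild type, to -1.31, and 3 moved with the brighter probe set, those of Tk1, which against wild type was then -1.40. No paired analysis was possible because each group had 1 array and the labels give no replicate numbers. Precision is limited by the number of arrays: a difference here is between 3 lines, and line, culture and array variation was not measured.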

Other observations

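Replication-dependent histone genes, which are transcribed in S phase to package new DNA, were set beside the replication genes. Of 26 with a value, 17 were lower in the double cKO than in wild type, 2 higher and 7 equal. Their median log2 difference was -0.13. Of all named genes 22.8% were lower and 24.8% higher by any amount. At least 2-fold lower were 2 of the 26, against 1.30% of all named genes. The 2 with the largest lower values were H1f5, a linker histone, at 10.65, 10.29 and 9.22 in wild type, Tgfbr2 cKO and double cKO, and H4c6, with a difference of -1.30. The 2 higher genes were H3c15 at 0.68 and H2bc4 at 0.02. Copies of these genes are nearly identical and their probe sets can share signal, so the single values are uncertain.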
